A study of Mus musculus with 24 samples.

Results

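Sphingosine 1-phosphate (S1P) is a signalling lipid made when sphingosine kinases phosphorylate sphingosine. It leaves the cell through dedicated exporters, acts on G protein-coupled receptors, or is broken down irreversibly by a lyase. In the blood S1P is held high by red cells and endothelium, and cells that carry S1P receptors, blood progenitors and lymphocytes among them, follow its gradient between tissue and circulation. A second branch of the same metabolism adds glucose and then galactose to ceramide and so builds the glycosphingolipids of the outer cell membrane.

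The 10 genes described here were chosen by name from these 2 branches: the kinases Sphk1 and Sphk2, the lyase Sgpl1, the exporters Mfsd2b and Spns2, the receptors S1pr1, S1pr2 and S1pr4, and the glycosyltransferases Ugcg and B4galt6. They are 10 of 55414 genes listed in each library, and each was matched to its row by symbol. All 10 had enough counts to be tested, among 19616 tested genes. The choice was made with the effect of maternal diet in females already known, so that comparison, and every other one that contains it, is given below as a description: calls are counted but support nothing, and no p-value of these 10 genes is printed for it.

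The measurements were RNA sequencing counts of LSK cells, the bone marrow fraction that lacks lineage markers, carries Sca-1 and Kit, and holds the stem cells and early progenitors of blood. The 4 groups of 6 libraries were female and male pups of dams on Western diet (TD.88137), which per the labels was given to make the dams obese, and female and male pups of dams on regular chow (2018SX). All pups were 21 days old, and the dams were C57BL/6J mice kept on their diet for 4 weeks before mating and on through pregnancy and lactation. Each group had 2 libraries in each of 3 batches. The labels used here do not say which pups shared a litter or whether marrow was pooled, so the spread between libraries may be smaller than the spread between dams.

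Libraries held 38057263 to 51581968 counts in genes, and levels are given as CPM, counts per 1000000 after scaling for library composition. Of the genes that define LSK cells, Kit lay at 267 to 883 CPM over the 24 libraries and Cd34 at 227 to 953 CPM, whereas Ly6a, which encodes Sca-1, lay at 2.14 to 39.9 CPM. On the first principal component of all libraries, replicates 5 and 6 of the female control group lay apart at -91.0 and -72.4, and both belong to batch 3. For the genes called in females, the diet difference is also given without them. In females 0 of the 6 genes that define LSK cells passed for diet, but 4 had an unadjusted p under 0.05, beside 21.3% of all genes tested, and their median log2 difference was 0.45. Ly6a averaged 16.1 CPM in female pups of Western-diet dams and 8.49 CPM in female controls (log2 difference 1.07, edgeR adjusted p 0.0994), and 14.7 CPM in male pups of Western-diet dams and 17.1 CPM in male controls. The part of these markers in the values below was not tested.

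In female pups of Western-diet dams, Sphk1 was 2.32-fold and Mfsd2b 2.00-fold lower than in female pups of control dams, while B4galt6 was 1.94-fold and Spns2 1.37-fold higher. In males the same 4 genes differed in the same directions by 1.58-fold, 1.44-fold, 1.47-fold and 1.14-fold, and none passed the threshold. The other 6 genes, namely Sphk2, Sgpl1, the 3 receptors and Ugcg, did not pass in either sex by the test described next, although Sphk2 was called lower in females under other settings.

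**Figure D1:**
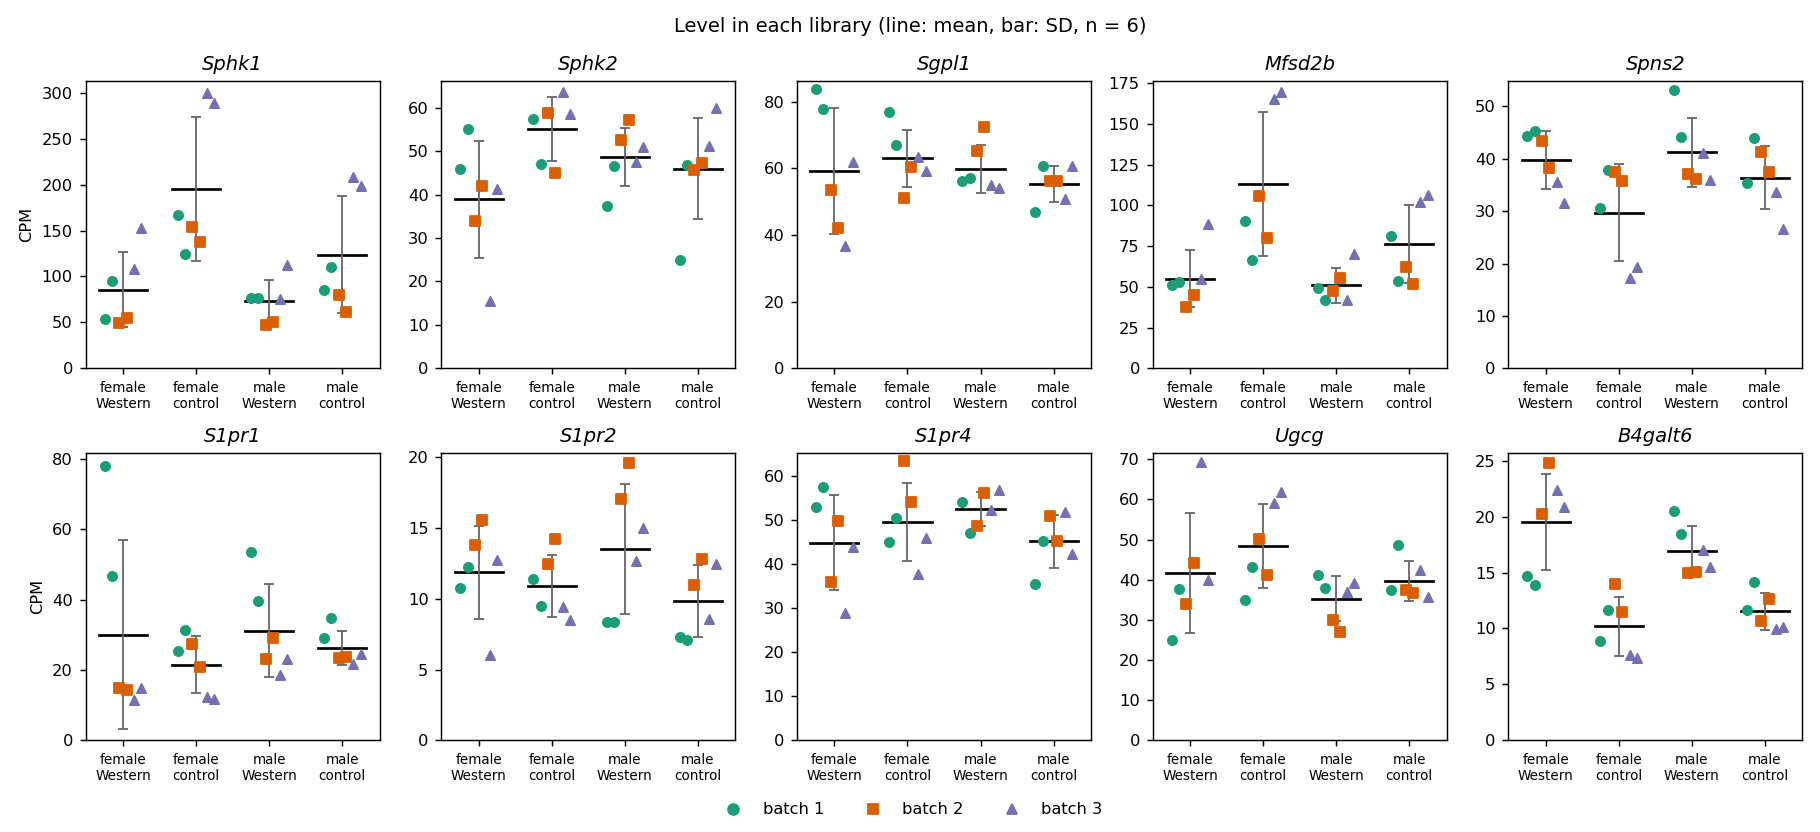
Level of each gene in CPM (y axis, from 0) in every library, by sex and maternal diet (x axis), with batch shown by colour and shape, the group mean as a line and the SD as a bar (n = 6). In females the Sphk1 points lie at 49.8 to 152 CPM after Western diet and at 125 to 300 CPM after control diet, and in males the B4galt6 points lie at 14.96 to 20.5 CPM after Western diet, above all control points at 9.95 to 14.2 CPM.

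Calls come from edgeR's quasi-likelihood test, with p-values adjusted by Benjamini-Hochberg over all 19616 genes and a threshold of 0.05. By this rule 4 of the 10 genes passed for diet in females, Sphk1 and Mfsd2b lower and B4galt6 and Spns2 higher, beside 5.42% of all genes tested (2.2% higher and 3.22% lower). Because the genes were chosen with this comparison in view, the count is not evidence that the pathway as a whole responded. The median log2 difference of the 10 genes was -0.12 in females, against 0.03 over all genes tested. In males 0 of the 10 passed, beside 0.0102% of all genes, which is 2 genes. Without adjustment, 4 of the 10 genes had p under 0.05 in males (Sphk1, Mfsd2b, B4galt6 and S1pr2), beside 8.45% of all genes. DESeq2 called 1 of the 10 in males and limma-voom 1, Sphk1 in both cases, beside 0.505% and 0.571% of all genes.

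**Figure D2:**
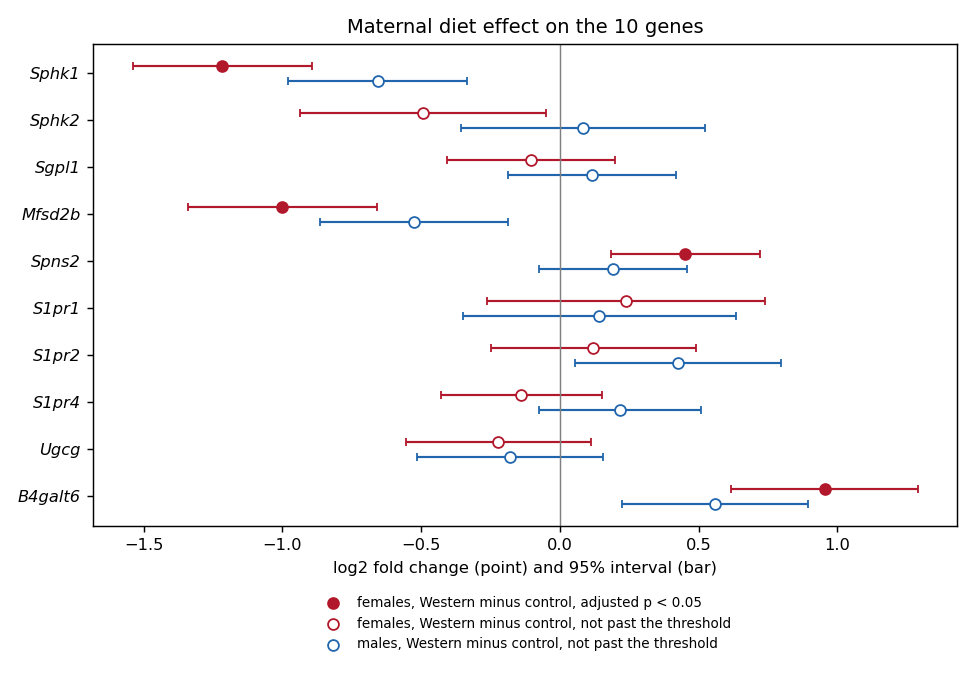
Log2 fold change of Western diet over control (x axis) for each gene in females (red, upper) and males (blue, lower), with 95% intervals as bars; filled points passed the threshold. Sphk1 and Mfsd2b lie left of 0 and B4galt6 right of 0 in both sexes with intervals that leave out 0, and the female point lies further from 0 in each.

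Sphk1 encodes the sphingosine kinase best known for making S1P in the cytoplasm and at the plasma membrane. Its lowest, median and highest levels were 49.8, 75.1 and 152 CPM in female pups of Western-diet dams, against 125, 160 and 300 CPM in female controls. Of the 6 Western-diet libraries, 5 lay below every control library and all 6 below the control mean. In females the log2 difference came to -1.22 ± 0.157 (SE), with a 95% interval of -1.54 to -0.89. Within batches 1, 2 and 3 it was -1.02, -1.48 and -1.20, so the direction was the same in each. Leaving out female control libraries 5 and 6 gave -1.22 as well.

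In males Sphk1 lay at 47.7, 75.7 and 113 CPM (lowest, median, highest) after Western diet, against 61.3, 97.7 and 208 CPM in controls. All 6 Western-diet males were below the control mean, but 4 of them overlapped the control range. This was a log2 difference of -0.66 ± 0.155 (SE), with a 95% interval of -0.98 to -0.34 and an edgeR adjusted p of 0.182. Over the 36 alternative settings that adjusted p ran between 0.0002759 and 0.9987. By batch the male difference was -0.34, -0.52 and -1.14.

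Batch 3 held the highest Sphk1 levels. In that batch the female pair was at 108 and 152 CPM after Western diet, against 288 and 300 CPM in controls, and the male pair at 75.1 and 113 CPM after Western diet, against 199 and 208 CPM in controls. In batch 2 the female pair was at 49.8 and 54.9 CPM after Western diet, against 138 and 154 CPM in controls. Each of these comparisons had only 2 libraries against 2, too few to tell separation from spread, and the absolute levels differed by batch.

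Sphk2 encodes the second kinase, much of which works in the nucleus and at internal membranes. It spanned 15.5, 41.7 and 55.2 CPM in female pups of Western-diet dams, against 45.0, 58.0 and 63.7 CPM in female controls. The log2 difference of -0.49 ± 0.214 (SE) did not pass the threshold, and 2 of the 6 Western-diet libraries lay within the control range. Its size rested on batch 3: within batches 1, 2 and 3 it was -0.05, -0.45 and -1.27. Sphk2 was called lower in females with no filter on low counts (-0.51) and without batch 1 (-0.81), and it was -0.30 and not called without replicate 5 of the female Western-diet group. In males Sphk2 lay at 37.4, 49.3 and 57.2 CPM after Western diet, against 25.05, 47.1 and 60.04 CPM in controls, with a log2 difference of 0.08 ± 0.213 (SE, edgeR adjusted p 0.936). Of the 4159 exon bases of Sphk2, 21.9% overlap exons of Dbp and Rpl18 on the opposite strand, and the library kit does not mark strand, so some of these counts could come from those neighbours.

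Sgpl1 encodes the lyase that ends S1P signalling by cleaving the lipid. It lay at 36.9, 57.6 and 83.9 CPM in females after Western diet, against 51.2, 61.8 and 77.0 CPM in female controls, so the Western-diet libraries reached both below and above the controls. Its log2 difference was -0.10, with a 95% interval of -0.41 to 0.20. In males Sgpl1 lay at 54.0, 56.6 and 72.3 CPM after Western diet, against 46.9, 56.2 and 60.7 CPM in controls, a log2 difference of 0.12 with a 95% interval of -0.19 to 0.42 (edgeR adjusted p 0.848).

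Mfsd2b encodes the S1P exporter of red cells and platelets. It lay at 37.5, 52.3 and 88.4 CPM in female pups of Western-diet dams, against 66.7, 98.0 and 170 CPM in female controls. As with Sphk1, 5 of the 6 Western-diet libraries were below every control library. The log2 difference was -1.0004 ± 0.165 (SE), and within batches 1, 2 and 3 it was -0.57, -1.16 and -1.26. Without female control libraries 5 and 6 it was -0.85.

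Male Mfsd2b levels were 42.0, 48.2 and 70.1 CPM after Western diet, against 51.7, 71.8 and 107 CPM in male controls. Their log2 difference was -0.53 ± 0.164 (SE), with all 6 Western-diet males below the control mean, 4 of them below every control, and an edgeR adjusted p of 0.329. Over the 36 alternative settings that adjusted p ran between 0.01641 and 0.9987. By batch the male difference was -0.54, -0.15 and -0.94.

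Spns2 encodes the other S1P exporter, known chiefly from endothelium. Its direction was opposite to that of Mfsd2b. It lay at 31.5, 40.8 and 45.2 CPM in female pups of Western-diet dams, against 17.2, 33.1 and 37.8 CPM in female controls, with 4 of the 6 Western-diet libraries above every control. Spns2 differed by 0.45 ± 0.13 (SE) on the log2 scale. It rested in large part on female control libraries 5 and 6, which were at 17.2 and 19.3 CPM while the other 4 controls were at 30.5 to 37.8 CPM. Without those 2 libraries the difference was 0.24 and no longer passed the threshold. In males Spns2 was at 35.99, 39.1 and 53.0 CPM after Western diet, against 26.7, 36.4 and 44.0 CPM in controls (log2 difference 0.19 ± 0.129 SE, edgeR adjusted p 0.713). The 6 genes listed as endothelial markers summed to 131 to 209 CPM in females after Western diet, against 85.6 to 161 CPM in female controls. Much of that sum was Pecam1, with medians of 90.8 CPM and 83.4 CPM in these 2 groups. Over the 24 libraries the medians of Cdh5 and Cldn5 were 8.63 and 4.77 CPM. None of the 6 endothelial markers passed in either sex, and their part in the Spns2 values was not tested.

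Since Sphk1 and Mfsd2b were lower together while Spns2 was higher, the 250 bases before the annotated start of each are shown. They are RefSeq sequences of build GRCm38.p6, an older build than the one the reads were aligned to, written 5′ to 3′ on the strand of the gene. Capitals mark a match to a GATA factor motif. Of the 5 listed Sphk1 starts, 1 is shown, and it is 1 of the 2 whose windows hold such a match.
Sphk1 (entry 4 of 5 listed starts, chr11:116532194-116532443, plus strand): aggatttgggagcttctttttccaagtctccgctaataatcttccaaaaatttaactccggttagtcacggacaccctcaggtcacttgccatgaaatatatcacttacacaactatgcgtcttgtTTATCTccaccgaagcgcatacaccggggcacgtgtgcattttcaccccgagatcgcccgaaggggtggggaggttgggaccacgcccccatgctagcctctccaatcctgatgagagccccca
Mfsd2b (chr12:4874360-4874609, minus strand): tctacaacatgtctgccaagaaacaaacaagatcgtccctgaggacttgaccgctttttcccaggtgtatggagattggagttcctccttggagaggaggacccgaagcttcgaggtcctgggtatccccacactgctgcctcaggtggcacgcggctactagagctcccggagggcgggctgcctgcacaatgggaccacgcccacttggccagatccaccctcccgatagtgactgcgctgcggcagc
Spns2 (chr11:72475028-72475277, minus strand): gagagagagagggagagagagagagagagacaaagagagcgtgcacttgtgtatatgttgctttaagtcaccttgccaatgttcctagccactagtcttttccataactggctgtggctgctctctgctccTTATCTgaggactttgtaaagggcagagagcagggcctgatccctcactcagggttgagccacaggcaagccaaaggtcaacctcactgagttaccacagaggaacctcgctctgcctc

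The GATA motif was searched as GATA with A or T before it and A or G after it, and a CACCC-type motif of the KLF family as CCNCNCCC, each on both strands, in 13 windows of 8 of the 10 genes. A GATA match was present in 2 of the 5 Sphk1 windows, which share 1 site 124 and 131 bases before their starts, and in the Spns2 window, 119 bases before the start. Each of the 5 Sphk1 windows held a CACCC match, and the Spns2 window held none. The Mfsd2b window had no GATA match and 1 CACCC match. The windows of Sphk2, S1pr2, Sgpl1 and Ugcg held CACCC matches without a GATA match, and that of S1pr4 held neither. In all, 11 of the 13 windows and 6 of the 8 genes held the CACCC motif. The GATA motif was in 3 windows and 2 genes. Over 32851 RefSeq promoter windows of this length, 26.5% held the GATA motif and 45.9% the CACCC motif. Counted by gene, these shares were 29.7% and 48.5%. Of the genes that were lower, Sphk1 thus held a GATA match in 2 of its 5 windows and Mfsd2b none. Spns2, which was higher, held 1 in its only window. A gene with more windows has more places for a match. A match describes letters only and not a bound site.

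S1pr1 encodes the receptor that draws lymphocytes and progenitors towards S1P. It lay at 11.6, 14.8 and 77.8 CPM in female pups of Western-diet dams, against 11.8, 23.1 and 31.4 CPM in female controls. S1pr1 differed by 0.24 ± 0.242 (SE), on the log2 scale with a 95% interval of -0.26 to 0.74, and the medians and the fitted difference have opposite signs. One library, replicate 1 of the female Western-diet group, carried the highest level of all 24. Without it the difference was -0.08, and within batches 1, 2 and 3 the differences were 1.09, -0.71 and 0.12. In males S1pr1 was at 18.6, 26.1 and 53.4 CPM after Western diet, against 21.7, 24.2 and 34.7 CPM in controls, a log2 difference of 0.14 with an interval of -0.35 to 0.63 (edgeR adjusted p 0.893). Batch separated S1pr1 more than diet did, with medians of 37.2 CPM in batch 1, 23.3 CPM in batch 2 and 16.7 CPM in batch 3 (8 libraries each).

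S1pr2 encodes a receptor that couples to G12 and G13 and commonly holds cells in place. It lay at 6.04, 12.5 and 15.5 CPM in females after Western diet, against 8.48, 10.4 and 14.2 CPM in female controls, with a log2 difference of 0.12 (95% interval -0.25 to 0.49). In males it lay at 8.32, 13.8 and 19.6 CPM after Western diet, against 7.07, 9.75 and 12.8 CPM in controls. The male log2 difference of 0.43 ± 0.179 (SE) had the same direction in the 3 batches (0.21, 0.62 and 0.42) and an edgeR adjusted p of 0.510. Only 3 of the 6 Western-diet males exceeded every male control.

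S1pr4 encodes the receptor found mainly on blood and lymphoid cells. It lay at 28.98, 46.9 and 57.6 CPM in females after Western diet, against 37.7, 48.3 and 63.5 CPM in female controls, a log2 difference of -0.14 (95% interval -0.43 to 0.15). In males it was at 47.2, 53.2 and 56.8 CPM after Western diet, against 35.5, 45.3 and 52.0 CPM in controls, a log2 difference of 0.22 (95% interval -0.07 to 0.51, edgeR adjusted p 0.702). All 6 Western-diet males lay above the male control mean, and 4 of them above every male control.

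Ugcg encodes the enzyme that puts glucose on ceramide and so opens the glycosphingolipid branch. It lay at 24.9, 38.7 and 69.3 CPM in females after Western diet, against 35.1, 46.7 and 61.7 CPM in female controls, and at 26.9, 37.4 and 41.2 CPM in males after Western diet, against 35.6, 37.4 and 48.6 CPM in male controls. The log2 differences were small and negative in every batch of both sexes. They came to -0.22 (95% interval -0.56 to 0.11) in females and -0.18 (95% interval -0.52 to 0.15, edgeR adjusted p 0.783) in males.

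B4galt6 encodes a galactosyltransferase that turns glucosylceramide into lactosylceramide, the step after Ugcg. It lay at 13.9, 20.6 and 24.8 CPM in female pups of Western-diet dams, against 7.36, 10.2 and 14.01 CPM in female controls, with 5 of the 6 Western-diet libraries above every control. B4galt6 differed by 0.95 ± 0.163 (SE) on the log2 scale, and within batches 1, 2 and 3 it was 0.49, 0.82 and 1.52. Without female control libraries 5 and 6 it was 0.77. Without batch 3 it was 0.67 and no longer passed the threshold.

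In males B4galt6 was at 14.96, 16.3 and 20.5 CPM after Western diet, against 9.95, 11.2 and 14.2 CPM in controls. The groups did not overlap: all 6 Western-diet males lay above every male control. It was the only one of the 10 genes whose male groups did not overlap, beside 0.5% of all genes tested in either direction and 0.209% higher. The log2 difference was 0.56 ± 0.162 (SE), with a 95% interval of 0.23 to 0.89 and an edgeR adjusted p of 0.278, and over the 36 alternative settings that adjusted p ran between 0.05474 and 0.9987. The male difference was 0.59, 0.37 and 0.69 within batches 1, 2 and 3.

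**Figure D3:**
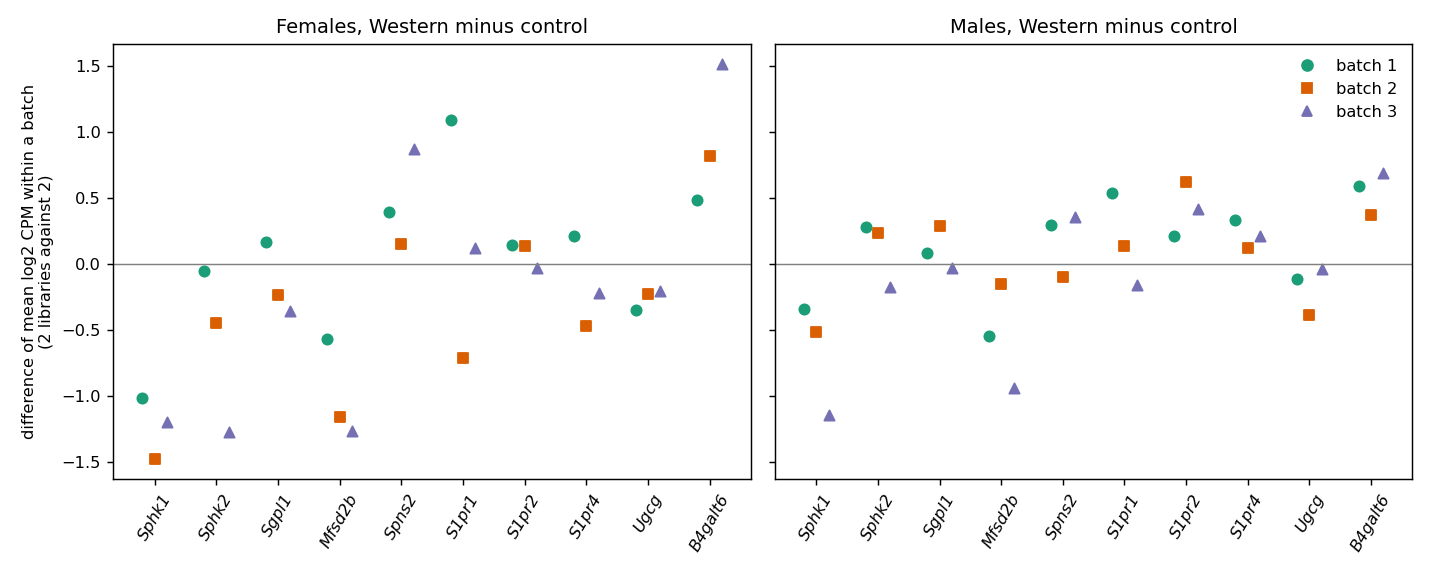
Difference of mean log2 CPM between Western diet and control within each batch (y axis, 2 libraries against 2) for each gene, in females (left) and males (right). Sphk1, Mfsd2b and Ugcg lie below 0 and B4galt6 above 0 in all 3 batches of both sexes, while S1pr1 in females runs between -0.71 and 1.09.

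Averaged over both sexes, the same 4 genes passed as in females (beside 5.7% of all genes): the log2 difference was -0.94 for Sphk1, -0.76 for Mfsd2b, 0.76 for B4galt6 and 0.32 for Spns2. The averaged values contain the female ones. Subtracting the female from the male diet effect gave 0.56 ± 0.219 (SE) for Sphk1, 0.48 ± 0.232 for Mfsd2b, 0.58 ± 0.302 for Sphk2, -0.39 ± 0.228 for B4galt6 and -0.26 ± 0.183 for Spns2 on the log2 scale. In edgeR 0 of the 10 genes passed for this contrast, beside 0% of all genes. At an unadjusted p under 0.05 the count was 1 of the 10 (Sphk1), beside 8.32% of all genes, and DESeq2 and limma-voom also called 0. Passing in females and not in males is therefore no measured difference between the sexes.

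The sex comparison within each diet uses the same libraries again, and the 6 female controls enter both the female diet comparison and the sex comparison of controls. Because the 10 genes were chosen with the female diet effect known, their values, p-values and calls by sex are descriptions too. In control pups Sphk1 was lower in males, at 61.3, 97.7 and 208 CPM, against 125, 160 and 300 CPM in females. Of the male controls, 4 lay below every female control. The log2 difference was -0.72 ± 0.155 (SE, edgeR adjusted p 0.0688). Mfsd2b differed by -0.55 ± 0.164 (SE, edgeR adjusted p 0.166), and Spns2 by 0.33 ± 0.13 (SE, edgeR adjusted p 0.285). In edgeR 0 of the 10 genes passed in control pups, beside 0.112% of all genes, and 3 had an unadjusted p under 0.05, beside 13.2%. DESeq2 and limma-voom each called 1, Sphk1, beside 1.41% and 0.688% of all genes. Without female control libraries 5 and 6 the difference was -0.73 for Sphk1 (edgeR adjusted p 0.564), -0.40 for Mfsd2b (0.981) and 0.11 for Spns2 (0.981).

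In Western-diet pups Sphk1 lay at 47.7, 75.7 and 113 CPM in males, against 49.8, 75.1 and 152 CPM in females, a log2 difference of -0.16 (95% interval -0.48 to 0.16, edgeR adjusted p 0.824). Mfsd2b differed by -0.07 (95% interval -0.41 to 0.27, edgeR adjusted p 0.938). The change in the sex difference between the diets is the contrast given above, which none of the 10 genes passed. In edgeR 0 of the 10 genes passed, beside 0.0816% of all genes, and 0 had an unadjusted p under 0.05, beside 6.75%.

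To compare levels between genes, CPM were divided by exon length in kilobases. Over the 24 libraries Sphk1 was highest at 25.02 ± 14.9 CPM per kilobase (mean ± SD), followed by S1pr4 at 20.1 ± 3.36 and Mfsd2b at 14.3 ± 6.93. Sphk2 (11.3 ± 2.69), Sgpl1 (9.67 ± 1.78), Spns2 (8.999 ± 1.95), S1pr1 (8.94 ± 4.96) and Ugcg (7.92 ± 2.00) formed a middle range of CPM per kilobase. B4galt6 at 2.501 ± 0.814 and S1pr2 at 1.44 ± 0.42 CPM per kilobase were lowest. Neighbours in this order mostly overlapped: Sphk1 exceeded S1pr4 in 12 of 24 libraries, S1pr4 exceeded Mfsd2b in 20, Mfsd2b exceeded Sphk2 in 14 and Sphk2 exceeded Sgpl1 in 18. From Sgpl1 down to Ugcg each gene exceeded the next in 12 to 14 libraries. Ugcg exceeded B4galt6, and B4galt6 exceeded S1pr2, in all 24. This order pools the groups. In both Western-diet groups S1pr4 stood above Sphk1, at 18.8 against 17.9 CPM per kilobase in females and 22.02 against 15.3 in males, and in both control groups Sphk1 stood above S1pr4. Among the 3 receptors S1pr4 had the highest and S1pr2 the lowest level per length.

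The genes also varied together across libraries. After each batch's mean was subtracted, log2 CPM of Sphk1 and Mfsd2b correlated over the 24 libraries with Pearson's r of 0.895 (Spearman's rho 0.891, and r 0.871 without female control libraries 5 and 6). B4galt6 ran against both, with r of -0.707 to Sphk1 and -0.789 to Mfsd2b, and Spns2 ran against Mfsd2b with r of -0.814. Sphk2 and Sgpl1 had r of 0.734, and Ugcg and S1pr2 had r of -0.713. These values are descriptions, since the libraries share diet groups, sexes and sequencing depth, and the genes were chosen with the female diet effect known.

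One library influenced several of these genes at once. Replicate 5 of the female Western-diet group, of batch 3, was the lowest of all 24 libraries for 5 of the 10 genes, Sphk2, Sgpl1, S1pr1, S1pr2 and S1pr4, and the highest for Ugcg. Its level of Sphk2 was 15.5 CPM and its level of Ugcg 69.3 CPM. The share of all genes tested for which this library was the lowest was not computed. Nothing particular to these genes can therefore be read from the count of 5.

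For genes outside the 10, r was likewise taken after subtracting batch means only. Differences by diet group and sex thus remain in it, and the ranks are a description. Genes outside the 10 whose log2 CPM ran most like them were named by rank of r over the same 24 libraries. For Sphk1 these were Col5a1 (r 0.982), a collagen chain, Hpn (0.982), a membrane serine protease, Slc25a21 (0.975), a mitochondrial carrier, Myh10 (0.971), a nonmuscle myosin, and Cela1 (0.965), an elastase. For Mfsd2b they were Ces2g (0.975), a carboxylesterase, Acsl6 (0.973), which activates long-chain fatty acids, Selenbp1 (0.955), Scrn3 (0.953) and Mylk3 (0.953). For B4galt6 they were Cables1 (0.911), Gfi1 (0.892), a repressor needed in stem cells and granulocyte development, Tmem38b (0.891), Ctdspl (0.888) and Zfp704 (0.883). For Ugcg they were Nadk2 (0.940), Phf10 (0.908), Dpy19l1 (0.899), Fam241a (0.896) and Kmt5a (0.888), and for S1pr1 Neil1 (0.865), Eya2 (0.862), Acap1 (0.859), Scml4 (0.856) and Nwd1 (0.856).

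Most erythroid markers, like Sphk1 and Mfsd2b, were lower with Western diet. Of 10 genes of megakaryocyte-erythroid priming, 7 passed as lower with Western diet in females, beside 3.22% of all genes tested. Among them were Gata1 (2.01-fold), Klf1 (2.51-fold) and Epor (2.21-fold). In males 1 passed, Car1 (2.501-fold lower), beside 0.0102% of all genes in either direction. Log2 differences were positive for 1 of the 10 in females and 2 in males. Nfe2 averaged 265 CPM in females after Western diet against 239 CPM in female controls, and 279 against 241 CPM in males. The summed level of the 10 genes was 1175, 1624 and 2522 CPM (lowest, median, highest) in females after Western diet, against 2002, 3127 and 5734 CPM in female controls. In males it was 1338, 1579 and 2117 CPM after Western diet, against 1582, 2089 and 4189 CPM in controls. Without female control libraries 5 and 6 the female control sum was 2002 to 3207 CPM.

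Of the 10 matched markers of mature red cells, 5 passed as lower in females, beside 3.22% of all genes tested. In males 0 passed, beside 0.0102% of all genes. All 10 nevertheless had negative log2 differences in males and an unadjusted p under 0.05, beside 8.45% of all genes with such a p. They summed to 671, 1612 and 2815 CPM in females after Western diet, against 1204, 2604 and 8591 CPM in female controls. In males they summed to 907, 2020 and 3186 CPM after Western diet, against 2539, 5012 and 6931 CPM in controls. Without female control libraries 5 and 6 the median of the female control sum was 3941 CPM. No marker of either list was at 0 in all libraries.

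Both lists also varied among the controls. In female controls the mature sum was 3341 and 8591 CPM in batch 1 and 1204 and 4541 CPM in batch 2. In batch 3 it was 1317 and 1867 CPM. The priming sum of female controls was 2002 and 3207 CPM in batch 1 and 2280 and 3047 CPM in batch 2. In batch 3 it was 5485 and 5734 CPM. Male controls had a median log2 difference of 0.61 to female controls over the mature list and of -0.55 over the priming list. In bulk RNA of this kind, fewer cells of a type and less RNA per cell cannot be told apart, and the part of erythroid cells in the Sphk1 and Mfsd2b values was not tested.

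Markers of granulocyte-monocyte progenitors, among them Gfi1, are given beside B4galt6. Of these 8, Gfi1 (1.87-fold) passed as higher in females, beside 2.2% of all genes tested that passed as higher, and 0 passed in males. All 8 had positive log2 differences in both sexes. They summed to 3819, 5115 and 12345 CPM in females after Western diet, against 2455, 3619 and 5683 CPM in female controls, with Mpo the most abundant. In males they summed to 3702, 6018 and 7972 CPM after Western diet, against 3218, 4579 and 8041 CPM in controls. Their part in the B4galt6 values was not tested. Of the remaining marker lists, 2 of 6 B cell markers (Igkc and Cd79b) rose in females, beside 2.2% of all genes tested. Of 6 T and NK cell markers, 1 (Nkg7) rose in females. Nkg7 had a median of 278 CPM over the 24 libraries. The medians of Cd3e, Cd3d, Cd3g, Klrb1c and Il7r were 0.42, 1.02, 1.04, 1.48 and 17.1 CPM. Of the tested megakaryocyte, macrophage, endothelial and stromal markers, 0 passed in either sex.

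The rest of the pathway was followed through 70 further sphingolipid genes, of which 65 were tested. In females 4 rose and 6 fell, 15.4% of those tested beside 5.42% of all genes. The median log2 difference of the 65 genes was 0.09, against 0.03 over all genes. The lists were chosen with earlier results of these data known. This share and the female adjusted p-values of these genes are therefore descriptions, and not evidence that the pathway responded. In males 0 of 65 passed and 9 had an unadjusted p under 0.05, beside 8.45% of all genes, and DESeq2 and limma-voom also called 0. Without female control libraries 5 and 6, 2 of these genes passed in females, St3gal5 and Plpp1 (log2 difference -0.99), beside 0.763% of all genes tested in that fit. The other 8 genes that had passed did not: their log2 differences were then 0.20 for Cers5, 0.50 for Cers6, -0.66 for Ormdl3, 0.24 for Hexa, -0.43 for Neu3, 0.53 for B3gnt5, -1.79 for Ugt8a and -0.57 for Arrb1.

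St3gal5 encodes the sialyltransferase that makes the ganglioside GM3 from the lactosylceramide B4galt6 helps to produce. It fell in females, to 18.8, 20.2 and 22.9 CPM after Western diet, against 30.997, 35.8 and 136 CPM in female controls, without overlap between the groups (beside 0.714% of all genes tested that did not overlap and were lower). The log2 difference was -1.33 ± 0.23 (SE, edgeR adjusted p 0.00119), and it was -0.84 without female control libraries 5 and 6. In males St3gal5 lay at 13.7, 18.4 and 24.96 CPM after Western diet, against 21.6, 24.96 and 46.8 CPM in controls (log2 difference -0.54 ± 0.225 SE, edgeR adjusted p 0.506). The gene that precedes the branch (Ugcg) did not pass, a gene for lactosylceramide synthesis (B4galt6) was higher, and a gene for its sialylation was lower in the same females. B4galt5, which encodes the other lactosylceramide synthase, had a log2 difference of 0.53 in females and did not pass (edgeR adjusted p 0.188).

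In the same glycosphingolipid synthesis list, Ugt8a, which makes galactosylceramide, fell in females and B3gnt5, which starts the lacto-series chain on lactosylceramide, rose. Ugt8a had very low levels, at 0.098, 0.16 and 0.56 CPM after Western diet, against 0.38, 1.19 and 2.69 CPM in female controls. B3gnt5 lay at 33.4, 41.5 and 56.1 CPM after Western diet, against 12.0, 30.1 and 39.6 CPM in female controls (log2 difference 0.77 ± 0.168 SE, edgeR adjusted p 0.00779). Of 12 degradation genes, Hexa, a hexosaminidase subunit, rose (log2 difference 0.48) and Neu3, a sialidase of gangliosides, fell (-0.63).

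Of 14 tested genes of ceramide synthesis, the ceramide synthases Cers6 (log2 difference 0.74) and Cers5 (0.44) rose in females, and Ormdl3 (-0.73), an inhibitor of serine palmitoyltransferase, fell. Cers6 lay at 31.02, 38.7 and 49.6 CPM after Western diet, against 14.6, 26.01 and 35.3 CPM in female controls. Ormdl3 lay at 33.1, 49.5 and 63.2 CPM after Western diet, against 55.6, 84.1 and 110 CPM in female controls. None of the 4 tested ceramidases and none of the 10 genes of sphingomyelin and ceramide 1-phosphate metabolism passed in either sex, although 2 and 5 of them had an unadjusted p under 0.05 in females, beside 21.3% of all genes.

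Among 7 other tested genes of S1P turnover and signalling, only Plpp1, a membrane phosphatase that can dephosphorylate S1P, passed. It fell to 7.75, 13.2 and 25.7 CPM in females after Western diet, against 18.1, 24.9 and 33.8 CPM in female controls (log2 difference -0.91 ± 0.18 SE, edgeR adjusted p 0.0038). In males Plpp1 lay at 9.88, 13.9 and 19.9 CPM after Western diet, against 13.4, 17.5 and 39.8 CPM in controls (log2 difference -0.56, edgeR adjusted p 0.353). Among 8 genes that couple to or regulate S1pr1, Arrb1, an arrestin that takes receptors out of signalling, was the only one to pass. Its groups did not overlap in females (beside 0.714% of all genes tested that did not overlap and were lower). Female levels of Arrb1 were 35.9, 48.5 and 58.2 CPM after Western diet, against 63.4, 79.5 and 110 CPM in controls (log2 difference -0.76 ± 0.162 SE). In males Arrb1 differed by -0.14 (edgeR adjusted p 0.834). The factor Klf2 and the surface protein Cd69, both known to control S1pr1 in lymphocytes, had log2 differences of 0.28 and -0.02 in females and did not pass.

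**Figure D4:**
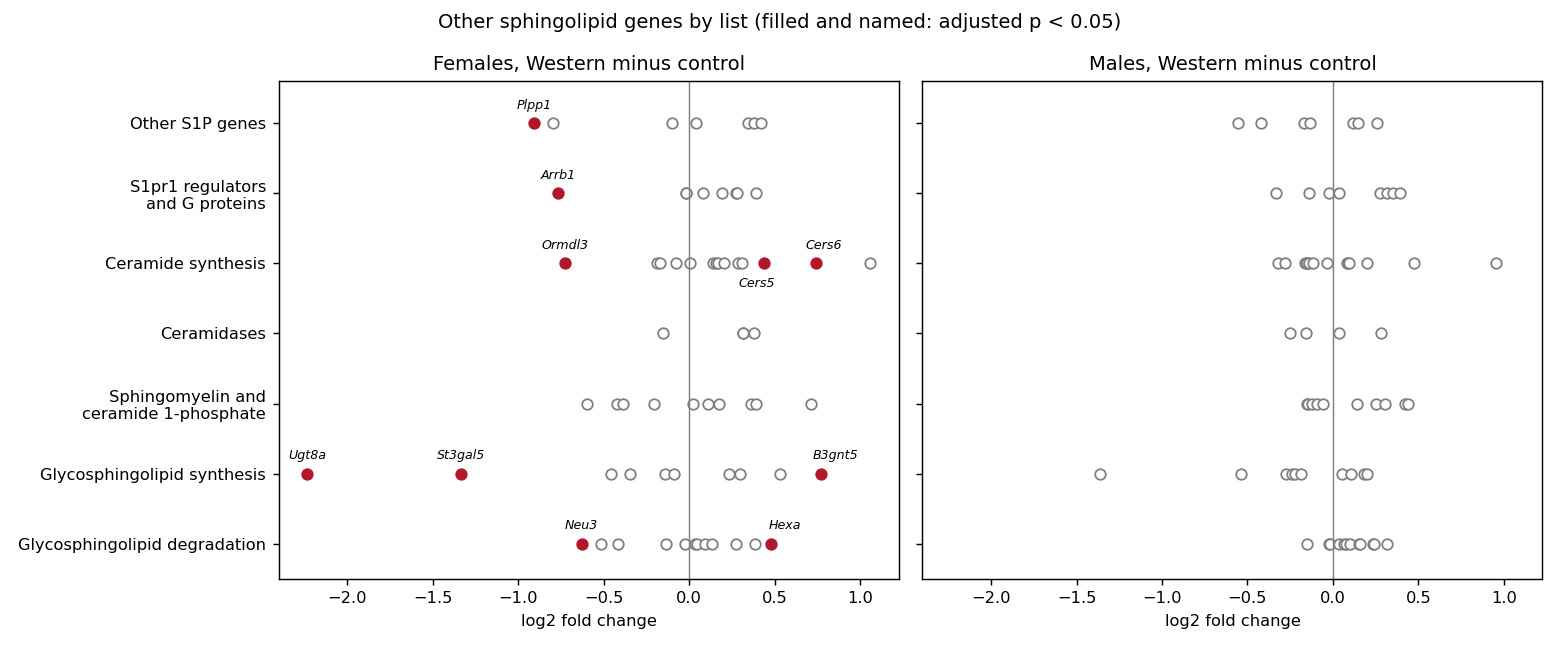
Log2 fold change of Western diet over control (x axis) for the 65 other tested sphingolipid genes, by list (y axis), in females (left) and males (right); filled, named points passed the threshold. In females 4 named genes lie right and 6 left of 0, from Ugt8a at -2.24 to B3gnt5 at 0.77, and in males no point is filled.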

How the data were processed

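Poly(A) RNA of sorted LSK cells (RNA integrity number above 8.0, per the labels' protocols) was made into libraries with a low-input kit that does not mark strand. The deposited files hold raw counts per gene, 1 file per library. FastQC, cutadapt, STAR, HTSeq, DESeq2 and the build GRCm39 are named in the submitters' processing notes, and which versions, annotation and strand setting were used is not given in the sources used here. The lines that close each count file name no gene, took up 31.0 to 39.3% of a library's total and were left out everywhere. Of 55414 gene IDs, 52133 matched a symbol in the reference tables. Reads of overlapping genes on opposite strands cannot be told apart.

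The test used edgeR 4.0.16 (R 4.3.3) on the 19616 genes kept by filterByExpr. TMM factors ran between 0.932 and 1.05, and the robust quasi-likelihood fit had group and batch as terms and used all 24 libraries, with a common coefficient of biological variation of 0.262. No 2 libraries were closer than 17.2 in chi-square over degrees of freedom, so none is a copy of another. P-values are two-sided and adjusted by Benjamini-Hochberg over all genes tested, and the SE is the log2 fold change over the root of its F statistic. Alternatives used DESeq2 1.42.0, limma-voom (limma 3.58.1), other size factors, filters, batch terms and subsets of libraries. The fit was tested on simulated data. Correlations used log2 CPM with a prior count of 2. Exon lengths came from GENCODE M21.

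The genes, lists and alternatives were chosen with earlier results of these data known. Named genes are the 10 chosen ones, up to 8 per direction of the other sphingolipid genes called for diet, the 5 genes most correlated with 5 of the chosen ones, and markers. Klf2, Cd69 and the named erythroid and LSK markers were added after their values were seen.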

Additional observations from a re-analysis of the deposited data

Results flagged for a closer look

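In 40 sets of 6 libraries (10 genes in 4 groups), 1 library lay far from the others of its group. Mfsd2b was at 88.4 CPM in replicate 6 of the female Western-diet group, while the other 5 libraries of that group were at 37.5 to 55.1 CPM. The gap to its nearest neighbour was 0.655 of the group's range, above Dixon's 95% limit for 6 samples. Chance places about 1 in 20 groups beyond that limit.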

How the results depend on the processing

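Each result was recomputed under up to 36 alternative settings. Of the 10 genes, 4 were called for diet in females; 2 were called with no batch term or without batch 3, 3 with the replicate number as a block (replicate block), and 3 to 4 with any 1 library left out. With no filter the 4 held Sphk2 in place of Spns2. Outside these 36 settings, and chosen after seeing the data, each batch was fitted alone with 2 libraries against 2: 0 of the 10 were called in females in batch 1, 1 (Sphk1) in batch 2 and 4 in batch 3, where St3gal5 was also called, while Plpp1 was called in none. Mfsd2b was called under all 36, St3gal5 likewise, Sphk1 under all but the fit with no batch term, B4galt6 under all but the one without batch 3, and Spns2 under 14. In males 2 were called with no filter, 1 by DESeq2 and 1 by limma-voom. In the average 2 were called without batch 3. In control pups by sex 2 were called with no filter and 1 by DESeq2, by limma-voom and with only the groups compared, and 0 to 1 with 1 library left out. The causes were not tested.

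Of the other sphingolipid genes, 10 passed for diet in females. That count was 6 by limma-voom, 4 with no batch term or only the groups compared, 2 without batch 2, without batch 3 or without female control libraries 5 and 6, 7 with the replicate block, and 7 to 12 with 1 library left out. In males it was 2 with no filter. The averaged count of 10 became 6 without batch 2, 2 without batch 3 and 5 without female control libraries 5 and 6. With no filter 1 passed for the sex difference of diet effects, 4 for sex in controls (2 by DESeq2, and 0 to 1 with 1 library left out) and 1 for sex in Western-diet pups.

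Signs turned for 5 differences, none of which had passed: S1pr1 in females became -0.38 without batch 1 and ranged from -0.082 to 0.39 with 1 library left out, S1pr4 in females 0.019 without batch 2, Sphk2 in males -0.022 without batch 2 and -0.049 to 0.18 with 1 library left out, S1pr1 in males -0.020 without batch 1, and Sgpl1 in males -0.0071 without batch 2. Replicate numbers were not taken as pairs. Deviations of same-numbered libraries from their group means correlated at -0.248 to 0.366, 25 of 36 pairs over 0.1, and within batches 4 of 36 did. By deviations from group means, 11 of the 24 libraries correlated best with one of their own number. These values cannot decide about pairing, since numbers follow batch. Within a batch, the 2 libraries of a group deviate from their mean as mirror images. The block changed no other call of the 10 genes than that of Spns2. Levels under about 1 CPM, such as those of Ugt8a, are limited by depth.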
